A study of Homo sapiens with 8 samples.

Results

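The genes described here are LTB, EBI3, PTGS2, CXCL8, UBD, TNFAIP2 and ICAM1, 7 of the 16295 genes listed in RNA-seq of MM1.S, an established human line of myeloma plasma cells. They were taken by name, as cytokines and effectors known to be induced by the transcription factor NF-kB, and because they were high after MS177 and low after DMSO. The 4 groups had 2 libraries each: 0.5 uM MS177 for 24 h, 0.5 uM C24 for 24 h, 0.5 uM MS177N1 for 24 h, and the solvent DMSO for 24 h. From background knowledge, MS177 is a degrader of the histone methyltransferase EZH2 that recruits the ubiquitin ligase receptor CRBN, C24 is the EZH2 inhibitor behind it, and MS177N1 is a control compound of the same series without degradation of EZH2. All groups are 1 cell line. The labels do not tie the 2 libraries of a group to separate cultures, so the spread behind each p-value is that of these libraries and may be technical.

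NF-kB is a family of dimeric transcription factors that inhibitor proteins such as IkB-alpha hold in the cytoplasm. Signals from receptors of the tumour necrosis factor family, or cellular stress, free the dimers, which then bind kB sites near genes for cytokines, chemokines, adhesion molecules and their own inhibitors. In myeloma, activity of this pathway is well known, both from signals of the bone marrow and from mutations in its regulators.

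The upstream sequences of the genes are shown first because the 7 were grouped by this pathway. RefSeq promoters (build GRCh38.p14) were found for all 7 members by symbol, and 3 kB-type motifs, GGAANTTCC, GGGNNTTCC and GGGNNNTTCC, were searched on both strands of the 250 bases before the start. These motifs can overlap one another, and they were chosen with the sequences in view. At least 1 of the 3 was found in 6 of 7 members and in 10.0% of 27305 promoters, and PTGS2 had no match in this window. All 3 motifs require TTCC, so kB sites of other letters are missed, and PTGS2 may still hold one. GGAANTTCC alone was found in 2 members, CXCL8 and ICAM1, and in 0.831% of promoters. GGGNNTTCC was found in 3 members and 5.81% of promoters, and GGGNNNTTCC in 3 members and 5.61% of promoters. A match is a match of letters only, and no binding was measured. In the lines below the letters in capitals are the kB-type matches. The whole 250 bases are shown for CXCL8, ICAM1 and UBD, and 60 bases around a match for the other 3.
CXCL8, chr4:73740319-73740568, plus strand: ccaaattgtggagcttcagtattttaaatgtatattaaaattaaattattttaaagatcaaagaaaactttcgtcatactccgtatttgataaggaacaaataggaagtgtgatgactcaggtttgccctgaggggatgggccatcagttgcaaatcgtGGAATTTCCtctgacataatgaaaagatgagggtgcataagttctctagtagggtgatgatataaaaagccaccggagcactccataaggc
ICAM1, chr19:10270870-10271119, plus strand: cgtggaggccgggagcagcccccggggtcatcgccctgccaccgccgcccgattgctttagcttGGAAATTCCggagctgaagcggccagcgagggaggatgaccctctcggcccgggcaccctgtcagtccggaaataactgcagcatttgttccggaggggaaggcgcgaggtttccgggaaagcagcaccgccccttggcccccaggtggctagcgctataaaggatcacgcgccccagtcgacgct
UBD, chr6:29559733-29559982, minus strand: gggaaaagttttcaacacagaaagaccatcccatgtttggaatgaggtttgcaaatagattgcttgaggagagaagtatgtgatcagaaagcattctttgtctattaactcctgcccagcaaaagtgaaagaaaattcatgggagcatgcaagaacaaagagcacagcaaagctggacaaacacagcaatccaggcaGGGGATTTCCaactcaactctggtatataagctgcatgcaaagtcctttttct
LTB, chr6:31582477-31582536, minus strand: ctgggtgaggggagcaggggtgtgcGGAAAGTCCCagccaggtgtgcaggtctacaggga
EBI3, chr19:4229284-4229343, plus strand: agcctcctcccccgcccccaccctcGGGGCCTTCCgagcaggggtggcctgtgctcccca
TNFAIP2, chr14:103123339-103123398, plus strand: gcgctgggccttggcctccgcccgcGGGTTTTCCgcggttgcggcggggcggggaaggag

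The match in CXCL8 ended 83 bases before the start, that in ICAM1 178, that in UBD 44, that in LTB 77 and that in TNFAIP2 89. EBI3 had a match ending 205 bases before the start and another ending 59 bases before it. The AP-1 motif TGANTCA was found in CXCL8 and EBI3 and in 6.60% of promoters. The TATA motif TATAAA was found in CXCL8, PTGS2 and ICAM1 and in 11.1% of promoters.

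Levels are normalized reads: reads recovered from the deposited values and divided by the authors' size factor of the library. The libraries held 20000665 to 26619099 reads in listed genes. Plasma cell markers were abundant in every library, with a summed level of 89542 and 87764 with MS177, 110582 and 108865 with C24, 113016 and 111946 with MS177N1, and 114130 and 115057 with DMSO. Of the 8 markers, 1 was called higher and 6 lower in MS177 against DMSO. The shares over all tested genes were 28.9% higher and 29.0% lower. In such bulk RNA, fewer cells making a transcript and less of it per cell cannot be told apart. A gene was called at a limma adjusted p under 0.05 over 14164 genes with enough reads to test. All 7 genes were tested, but EBI3, PTGS2 and CXCL8 had enough reads only because of the MS177 libraries. The same held for some genes of the lists below, such as CXCL1, CSF3, MMP9, CXCR2, CXCL11 and SOCS3. The contrast of MS177 with DMSO chose the genes, so every value of the 7 with MS177 is a description with no test.

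In all 7 genes, both MS177 libraries lay above the other 6 libraries, an arrangement that 33.2% of the tested genes showed. In MS177 against DMSO, 57.9% of all tested genes were called, 28.9% higher and 29.0% lower, so the contrast was broad. The median log2 fold change of the 7 was 5.10 in MS177 against DMSO, beside 0.00 over all tested genes, on the scale of log2(normalized reads + 1). Such a value is a difference of mean logs, so it need not equal the log2 of a fold of summed reads. A low level without MS177 held least for ICAM1, and next for LTB. ICAM1 in DMSO was above 45.6% of the tested genes, against 20.6% for LTB, 6.10% for UBD, 5.76% for TNFAIP2, 1.43% for PTGS2, 0.840% for EBI3 and 0.671% for CXCL8.

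**Figure D1:**
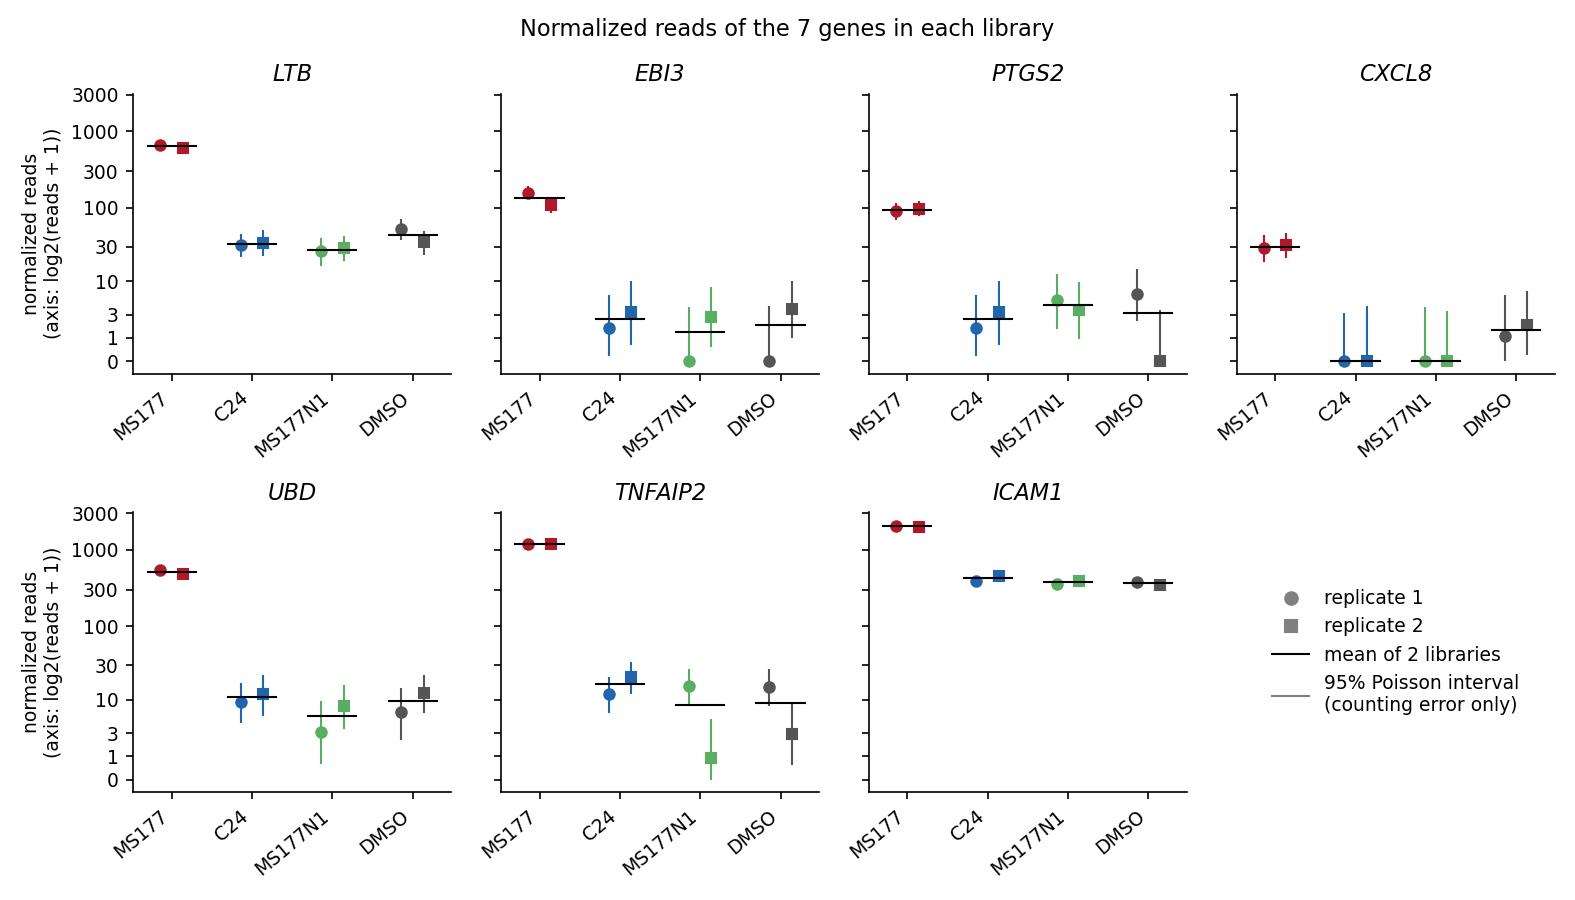
Normalized reads of each gene (vertical axis, log2(reads + 1) scale) in the 2 libraries of each group, with the mean and each library's 95% Poisson interval, which covers counting error only. Both MS177 libraries sit above the other 6 in every panel, and ICAM1 is the highest of the 7 without MS177, at 348 normalized reads or more.

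Of the secreted or surface cytokines, LTB encodes lymphotoxin beta, which anchors lymphotoxin alpha at the cell surface and signals to the receptor LTBR. LTB had 674 and 602 normalized reads with MS177, 31.7 and 34.3 with C24, 26.2 and 29.1 with MS177N1, and 51.7 and 34.6 with DMSO. The MS177 libraries stood far above the rest, and the DMSO libraries were above both MS177N1 libraries. The group level was 14.9-fold higher in MS177 than in DMSO (95% interval for counting error 11.9 to 18.9).

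EBI3 encodes a secreted subunit shared by the cytokines IL-27 and IL-35. It had 158 and 108 normalized reads with MS177, 1.71 and 3.32 with C24, 0 and 2.73 with MS177N1, and 0 and 3.85 with DMSO. The 6 libraries without MS177 held 0 to 4 reads each, and a count of 0 allows up to 3 reads. The MS177 libraries differed from each other more than for the other 6 genes in the plot of reads by library, and their Poisson intervals, 133 to 185 and 88.8 to 129, did not overlap. The fold of MS177 over DMSO was 63.7, with a counting interval of 24.6 to 236. The fitted log2 fold change of EBI3 was 5.90 (SE 0.88), but 4.76 without DMSO replicate 1 and 7.04 without DMSO replicate 2.

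CXCL8 encodes interleukin 8, a chemokine that attracts neutrophils through CXCR1 and CXCR2. It had 28.9 and 31.8 normalized reads with MS177, 0 and 0 with C24, 0 and 0 with MS177N1, and 1.10 and 1.92 with DMSO. In reads these were 27 and 34 with MS177 and 1 and 2 with DMSO. CXCL8 with MS177 was at least 21.0-fold higher than with C24 and at least 20.8-fold higher than with MS177N1, taking 3 reads per group as the floor. These bounds take the MS177 reads as counted, without their own counting error. Against the 3 reads of DMSO the ratio was 19.8, with a counting interval of 6.46 to 98.6.

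Of the intracellular effectors, PTGS2 encodes cyclooxygenase 2, the inducible enzyme that makes prostaglandin H2 from arachidonic acid. It had 90.0 and 97.3 normalized reads with MS177, 1.71 and 3.32 with C24, 5.25 and 3.64 with MS177N1, and 6.60 and 0 with DMSO. Both MS177 libraries were high and close to each other, while the other 6 held 0 to 6 reads each. The ratio of MS177 to DMSO was 30.5 (counting interval 13.8 to 84.1). The fitted log2 fold change was 5.10 (SE 0.82), but 3.64 without DMSO replicate 2 and 6.56 without DMSO replicate 1.

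UBD encodes FAT10, a ubiquitin-like protein that marks others for the proteasome and is known to be induced by interferon gamma and tumour necrosis factor. It had 543 and 477 normalized reads with MS177, 9.41 and 12.2 with C24, 3.15 and 8.19 with MS177N1, and 6.60 and 12.5 with DMSO. The C24, MS177N1 and DMSO libraries lay in 1 range of 3 to 13 reads. The level with MS177 was 52.1-fold that with DMSO (counting interval 33.2 to 86.9).

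TNFAIP2, named for its induction by tumour necrosis factor, encodes a protein known for its part in membrane nanotubes. It had 1200 and 1195 normalized reads with MS177, 12.0 and 21.0 with C24, 15.7 and 0.909 with MS177N1, and 15.4 and 2.88 with DMSO. The MS177 libraries were nearly equal. The 2 MS177N1 libraries were not: their Poisson intervals, 8.81 to 26.0 and 0.0230 to 5.07, did not overlap. The fold of MS177 over DMSO was 137 (counting interval 85.6 to 236). Its log2 fold change of 7.23 (SE 1.24) ranked 3 among 14164 tested genes and was the largest of the 7. The fold change was 6.19 without DMSO replicate 2 and 8.27 without DMSO replicate 1.

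ICAM1 encodes an adhesion protein of the cell surface, bound by integrins of leukocytes. It had 2041 and 2017 normalized reads with MS177, 396 and 453 with C24, 359 and 394 with MS177N1, and 380 and 348 with DMSO. Thus it was well expressed in every library and had the smallest fold of the 7, 5.59 in MS177 against DMSO (counting interval 5.16 to 6.06). Its log2 fold change was 2.48 (SE 0.09), which ranked 353 among tested genes, beside 3.69% of genes at a log2 fold change of 2 or more.

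Per kilobase of exon (GENCODE 29 exon lengths, GRCh38), the order of the mean levels with MS177 was LTB at 710 ± 56.4, ICAM1 at 624 ± 5.23, UBD at 469 ± 43.1, TNFAIP2 at 256 ± 0.747, EBI3 at 112 ± 29.8, PTGS2 at 20.7 ± 1.14 and CXCL8 at 15.2 ± 1.01 normalized reads per kilobase (SD, n = 2 each). LTB and ICAM1, neighbours in that order, lay apart by more than the SD of either, and so did PTGS2 and CXCL8, but these orders were not tested. With DMSO, ICAM1 came first at 112 ± 6.89 and LTB next at 48.0 ± 13.5, and UBD had 8.79 ± 3.83. TNFAIP2 at 1.95 ± 1.89, EBI3 at 1.62 ± 2.29, CXCL8 at 0.755 ± 0.290 and PTGS2 at 0.731 ± 1.03 did not differ beyond their spread.

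**Figure D2:**
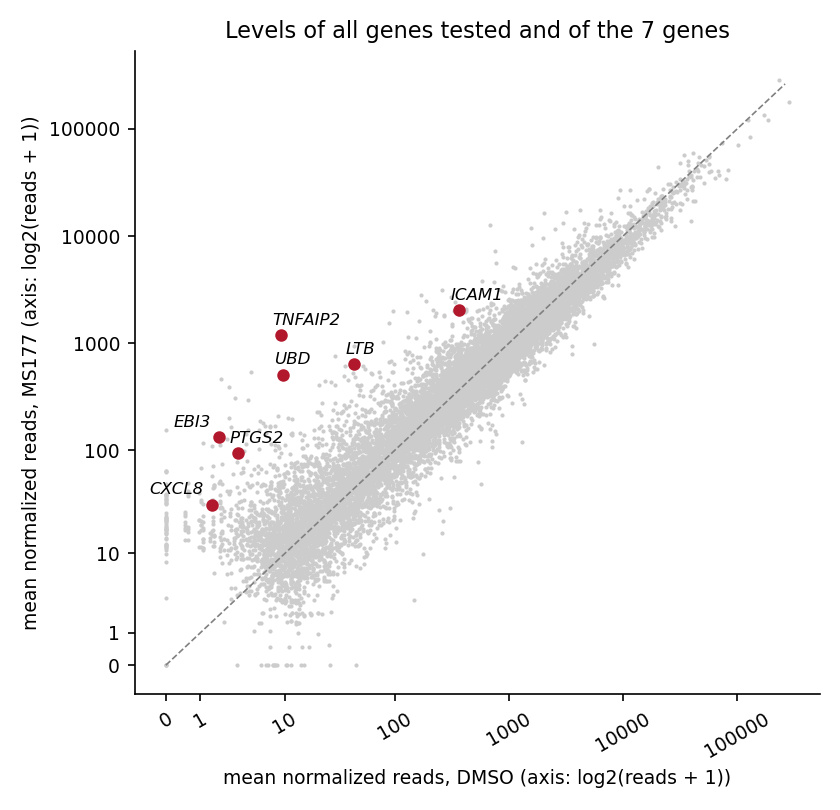
Mean normalized reads of the 14164 tested genes (grey) and of the 7 genes (red, named) with MS177 (vertical axis) and with DMSO (horizontal axis), both on a log2(reads + 1) scale, with the line of equal levels dashed. The 7 lie above the line, from CXCL8 at 30.4 with MS177 and 1.51 with DMSO to ICAM1 at 2029 with MS177 and 364 with DMSO.

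Set against the related compounds at the same dose and time, MS177 gave the same picture, again as a description. The fold of LTB was 19.4 over C24 and 22.9 over MS177N1, and that of EBI3 was 54.2 and 89.5, where MS177N1 held 3 EBI3 reads (counting interval 30.3 to 437). The fold of PTGS2 was 38.9 over C24 and 21.4 over MS177N1, that of UBD 47.8 and 86.9, that of TNFAIP2 75.2 and 154, and that of ICAM1 4.82 and 5.37. Single MS177N1 libraries moved 2 of these: over MS177N1, the log2 fold change of TNFAIP2 was 7.73, but 9.29 without MS177N1 replicate 1 and 6.16 without MS177N1 replicate 2, and that of EBI3 was 6.09, but 5.14 without MS177N1 replicate 1 and 7.04 without MS177N1 replicate 2. The median log2 fold change of the 7 was 4.97 over C24 and 4.97 over MS177N1, or 4.79 and 4.48 with CXCL8 at its lower bound. The medians over all tested genes were 0.01 and -0.00. These comparisons share the MS177 libraries.

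The level with DMSO took part in choosing the genes, so C24 and MS177N1 are set beside DMSO as a description, with no test. Over all tested genes, limma called 0.0918% in C24 against DMSO and 0.0353% in MS177N1 against DMSO, and 5.38% and 5.07% had an unadjusted p under 0.05. These comparisons share the DMSO libraries. ICAM1 averaged 425 ± 40.4 normalized reads with C24, 376 ± 24.7 with MS177N1 and 364 ± 22.4 with DMSO (SD, n = 2 each). Both C24 libraries were above both DMSO libraries, at a log2 difference of 0.22 (SE 0.09), while the MS177N1 and DMSO libraries overlapped, at 0.05 (SE 0.09). LTB averaged 33.0 ± 1.85 with C24, 27.7 ± 2.03 with MS177N1 and 43.2 ± 12.1 with DMSO. Both compounds lay below both DMSO libraries for LTB, at -0.35 (SE 0.24) for C24 and -0.60 (SE 0.24) for MS177N1. Without DMSO replicate 1 these were -0.07 and -0.31, and C24 replicate 2, at 34.3, nearly equalled DMSO replicate 2, at 34.6.

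C24 and MS177N1, at the same dose and time, were compared with a test in the 4 genes that had enough reads without MS177: LTB, UBD, TNFAIP2 and ICAM1. In C24 against MS177N1, limma called 0 of 4, beside 0.0141% of all tested genes, and 0 of 4 had an unadjusted p under 0.05, beside 4.48% of all tested genes. With voom weights, another limma model, 0 of 4 were called as well. UBD had 10.8 ± 1.95 normalized reads with C24 and 5.67 ± 3.56 with MS177N1, a log2 difference of 0.92 (95% interval -0.02 to 1.87, limma adjusted p = 0.997). ICAM1 differed by 0.17 (95% interval -0.03 to 0.37), LTB by 0.25 (95% interval -0.26 to 0.75) and TNFAIP2 by 1.58 (95% interval -1.64 to 4.80). With this spread, log2 differences above 0.37 for ICAM1 or 0.75 for LTB lay outside the interval, whereas a difference of several-fold in TNFAIP2 was not detectable. The missing calls do not show that the 2 compounds act alike. EBI3, PTGS2 and CXCL8, with 0 to 5 reads in each of these 4 libraries, were too low to compare.

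**Figure D3:**
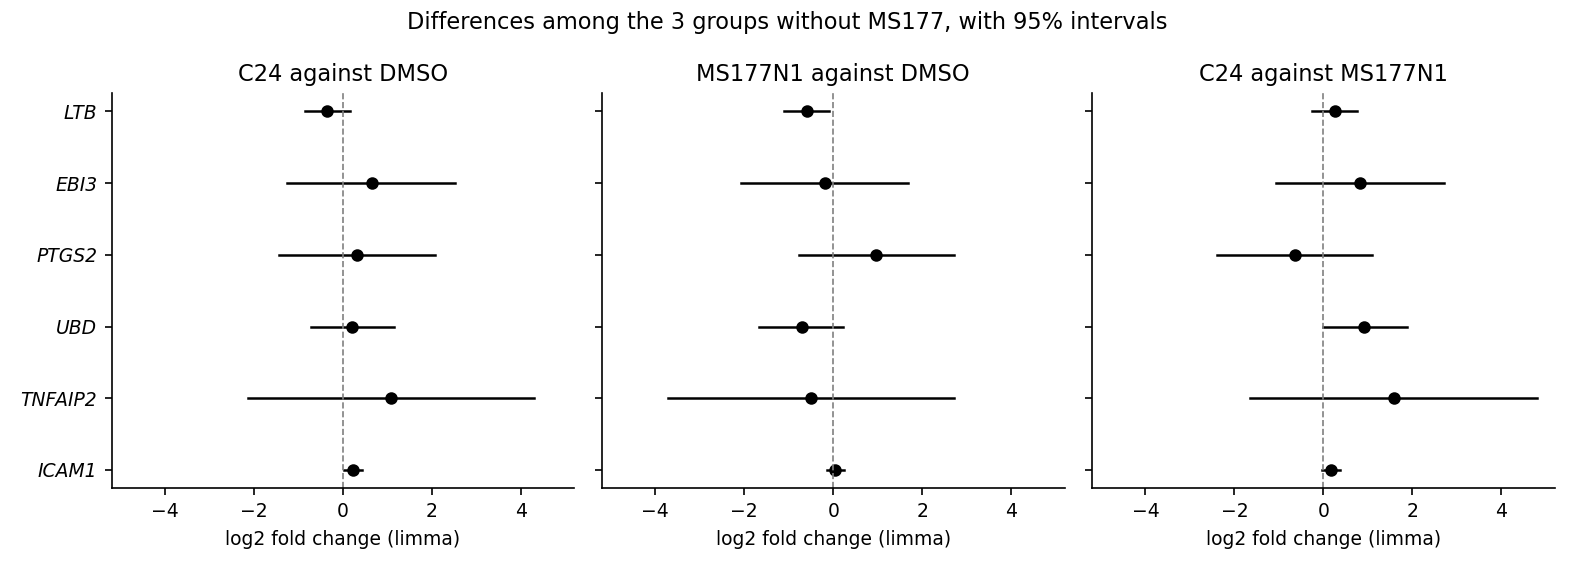
Log2 fold changes (horizontal axis, limma, points) with 95% intervals (lines) of 6 genes in C24 against DMSO, MS177N1 against DMSO and C24 against MS177N1; CXCL8 is left out because it had 3 or fewer reads in each of these groups. The comparisons with DMSO, and all values of EBI3 and PTGS2, are a description. The intervals of ICAM1 and LTB are narrow, and that of TNFAIP2 runs from -2.14 to 4.30 in C24 against DMSO.

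Other genes known to be induced by NF-kB were measured in a list that left the 7 out. Of 47 such genes, 35 were listed and 29 could be tested. TNF, IL1A and IL6 were among those not listed, and IL1B and CCL2 among those with too few reads. In MS177 against DMSO 20 rose (69.0%), 2 fell (6.90%) and 7 were not called, beside 28.9% higher and 29.0% lower over all tested genes. CXCL1, CSF3, TNFRSF9, MMP9 and CD80, counted among the 20, could be tested only because they were high with MS177. The list's median log2 fold change was 0.96, beside 0.00 over all genes. Earlier results of these data were known when the list was made, so it is no independent evidence of direction. Against DMSO, limma called 0 of the 29 with C24, where 2 had an unadjusted p under 0.05, and 0 with MS177N1, where 0 did. Over all tested genes, 5.38% and 5.07% had such a p.

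CXCL1, a chemokine of the same receptors as CXCL8 and coded near it, had 64.3 and 63.6 normalized reads with MS177 and 0 in each of the other 6 libraries. It was at least 41.5-fold higher with MS177 than with DMSO (limma adjusted p = 0.000141), though its reads are uncertain because CXCL2 and CXCL3 are close copies. CSF3, which encodes the granulocyte growth factor G-CSF, had 45.0 and 23.4 with MS177 and 0 and 0 with DMSO, at least 21.7-fold higher (limma adjusted p = 0.00111). MMP9, a secreted protease of the extracellular matrix, had 168 and 139 with MS177 and 6.60 and 1.92 with DMSO (limma adjusted p = 5.02e-06). Its log2 fold change was 5.03, but 5.72 without DMSO replicate 1 and 4.34 without DMSO replicate 2. These 3 thus also stood at few or no reads without MS177. They could be tested only because of the MS177 libraries, so their p-values are no independent evidence of a rise.

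Of the 2 that fell, SOD2, the mitochondrial superoxide dismutase, had 1255 and 1265 normalized reads with MS177 and 1674 and 1767 with DMSO (log2 fold change -0.45, SE 0.06, limma adjusted p = 1.01e-05). IL15, a cytokine of lymphocytes, had 49.3 and 48.6 with MS177 and 81.4 and 66.3 with DMSO (-0.58, SE 0.24, limma adjusted p = 0.0480). The call of IL15 was lost without MS177 replicate 1 or 2, C24 replicate 1, MS177N1 replicate 1 or 2, or DMSO replicate 1, at adjusted p of 0.0501 to 0.226.

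Of the NF-kB subunits and regulators, 19 of 26 tested rose, 3 fell and 4 were not called in MS177 against DMSO, at a median log2 fold change of 0.33. The shares were 73.1% higher and 11.5% lower, beside 28.9% and 29.0% of all tested genes. REL, which encodes the subunit c-Rel, had the largest rise, with 305 and 341 normalized reads with MS177 and 40.7 and 64.4 with DMSO (2.63, SE 0.23, limma adjusted p = 8.72e-08). The other subunits rose less: NFKB1 by 0.44 (SE 0.06), RELB by 0.34 (SE 0.07), RELA by 0.29 (SE 0.06) and NFKB2 by 0.19 (SE 0.05). Their limma adjusted p lay between 1.19e-05 and 0.00502. Among the inhibitors that NF-kB itself induces, TNFAIP3, the ubiquitin-editing protein A20, had 10910 and 11241 with MS177 and 4623 and 4635 with DMSO (1.26, SE 0.04, limma adjusted p = 4.55e-12). NFKBIA, which encodes IkB-alpha, had 1127 and 935 with MS177 and 675 and 615 with DMSO (0.67, SE 0.11, limma adjusted p = 7.32e-05). The nuclear IkB proteins NFKBIZ (2.03, SE 0.16) and BCL3 (1.26, SE 0.11) rose as well.

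The kinase IKBKB, which phosphorylates the inhibitors, fell instead. It had 227 and 261 normalized reads with MS177 and 546 and 563 with DMSO (-1.18, SE 0.10, limma adjusted p = 4.75e-08). IKBKG, the scaffold NEMO of the same complex, had 534 and 522 with MS177 and 758 and 682 with DMSO (-0.45, SE 0.08, limma adjusted p = 0.000304), but a pseudogene of near-identical sequence makes its reads uncertain. With C24 and with MS177N1, limma called 0 of the 26 against DMSO, and 1 in each comparison had an unadjusted p under 0.05. Over all tested genes, 5.38% and 5.07% had such a p.

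**Figure D4:**
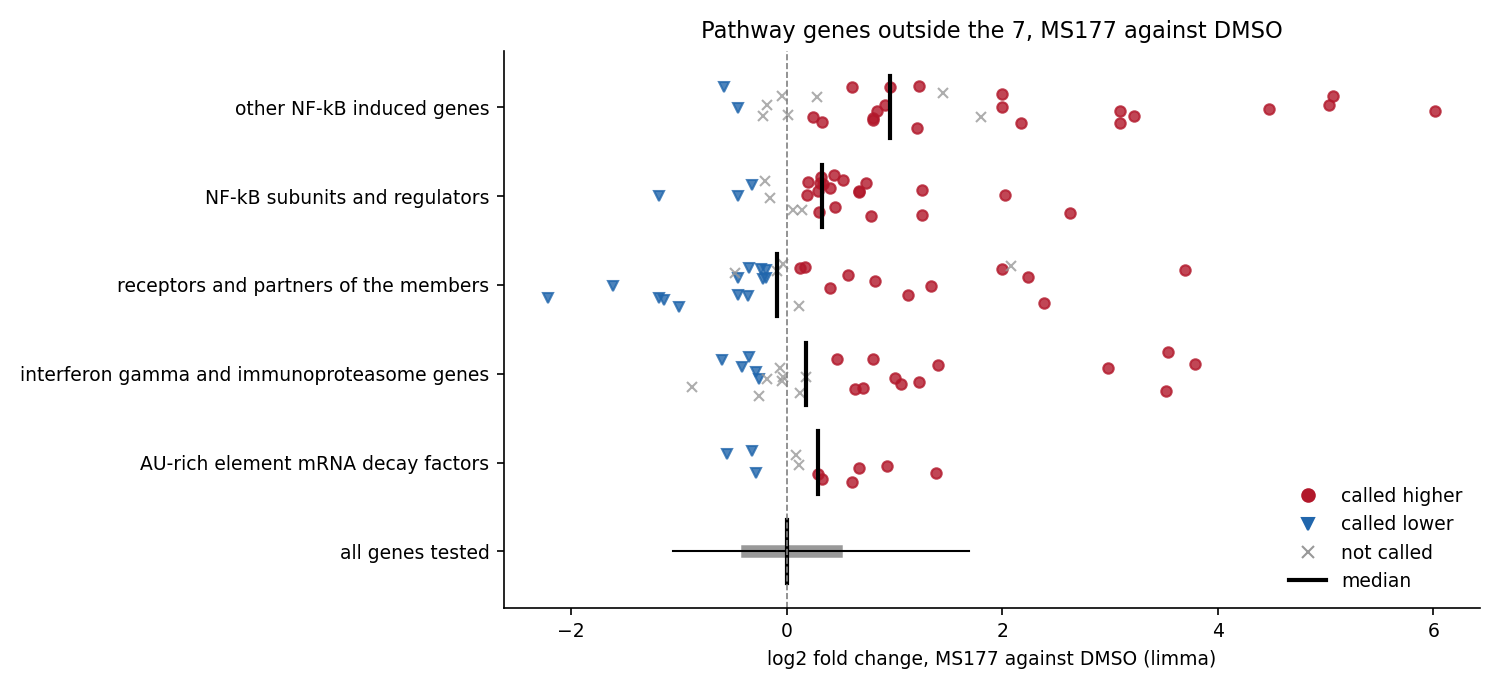
Log2 fold changes of single genes in MS177 against DMSO (horizontal axis, limma) for 5 lists that leave out the 7 genes, marked by whether they were called, with each list's median as a black bar; the lowest line gives the median, the middle 50% and the 5 to 95% range of all tested genes. Genes at 0 reads in DMSO stand at their fitted values. The NF-kB induced genes have the highest median, 0.96, and the receptors and partners the lowest, -0.09.

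Of 29 tested receptors and partners of the 7 gene products, 11 rose, 13 fell and 5 were not called in MS177 against DMSO, at a median of -0.09. That is 37.9% higher and 44.8% lower, beside 28.9% and 29.0% of all tested genes. For lymphotoxin, LTA, the partner of LTB, rose, averaging 130 ± 25.2 normalized reads with MS177 and 32.3 ± 10.3 with DMSO (SD over the 2 libraries, limma adjusted p = 0.000379). The receptor LTBR averaged 40.7 ± 15.2 with MS177 and 8.60 ± 8.08 with DMSO (2.39, SE 0.65, limma adjusted p = 0.00504). LTBR lost its call without DMSO replicate 2, at 1.40 and an adjusted p of 0.0774, and was at 3.38 without DMSO replicate 1. TNFSF14, the other ligand of LTBR, held 0 to 4.42 normalized reads in every library.

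For EBI3, the partner IL12A of IL-35 fell, averaging 50.6 ± 13.3 normalized reads with MS177 and 102 ± 19.9 with DMSO (SD over the 2 libraries, limma adjusted p = 0.00207). IL6ST, the signalling receptor chain gp130, rose by 0.57 (SE 0.06, limma adjusted p = 6.71e-07). The receptor chain IL27RA fell by 0.45 (SE 0.09, limma adjusted p = 0.000496). IL27, which encodes the partner in IL-27, was not analysed here. For CXCL8, CXCR1 had 0 and 0 normalized reads with MS177 and 2.20 and 6.73 with DMSO and was not tested. CXCR2 had 12.9 and 11.2 with MS177 and 0 with DMSO, at least 7.79-fold higher (limma adjusted p = 0.0222), a call lost without either MS177 library or either DMSO library, at adjusted p of 0.0506 to 0.133.

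Beside PTGS2, the constitutive cyclooxygenase PTGS1 had 126 and 146 normalized reads with MS177 and 63.8 and 59.6 with DMSO (1.13, SE 0.22, limma adjusted p = 0.000367). The prostaglandin E2 receptor PTGER4 had 361 and 315 with MS177 and 128 and 138 with DMSO (1.34, SE 0.16, limma adjusted p = 3.09e-06). PTGER2, another receptor of that prostaglandin, had 0 and 0 with MS177 and 1.10 and 8.65 with DMSO and was not tested. Other genes of the same list fell: PTGES2, a prostaglandin E synthase, had 1102 and 1080 with MS177 and 2507 and 2427 with DMSO (-1.18, SE 0.06, limma adjusted p = 1.14e-10). HPGD, which inactivates prostaglandins, had 50.4 and 45.8 with MS177 and 108 and 106 with DMSO (-1.14, SE 0.21, limma adjusted p = 0.000235), and PTGES3 fell by 0.22 (SE 0.04, limma adjusted p = 0.000249). PLA2G4A, the phospholipase that frees arachidonic acid, and TBXAS1, the thromboxane synthase, were not called, and PTGES was not analysed here. For UBD, the activating enzyme UBA6 had 1279 and 1315 with MS177 and 1150 and 1153 with DMSO (0.17, SE 0.07, limma adjusted p = 0.0371). The UBA6 call was lost when any library other than MS177 replicate 1 was left out, at adjusted p of 0.0507 to 0.111.

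For ICAM1, the other ICAM genes did not share the direction: ICAM2 fell by 0.45 (SE 0.08) and ICAM3 fell by 0.36 (SE 0.05). Their limma adjusted p was 0.000241 and 1.39e-05. ICAM5 had 1.07 and 4.68 normalized reads with MS177 and 14.3 and 15.4 with DMSO (-2.21, SE 0.64, limma adjusted p = 0.00776), a call lost without MS177 replicate 1, at -1.48 and an adjusted p of 0.0771, with -2.93 without MS177 replicate 2. Of the integrin chains that bind ICAM1, ITGAL had 3620 and 3696 with MS177 and 3469 and 3314 with DMSO and was not called (limma adjusted p = 0.0752). ITGAM rose, with 61.1 and 72.9 with MS177 and 14.3 and 12.5 with DMSO (limma adjusted p = 0.000574). Their shared partner ITGB2 had 11.8 and 12.2 with MS177 and 2.20 and 1.92 with DMSO (2.08, SE 1.00, limma adjusted p = 0.0874). TNFRSF1B, the second receptor of tumour necrosis factor, had 600 and 556 with MS177 and 1802 and 1737 with DMSO and fell by 1.61 (SE 0.07, limma adjusted p = 2.95e-11). Against DMSO, limma called 0 of the 29 with C24, where 4 had an unadjusted p under 0.05, and 0 with MS177N1, where 1 did. Over all tested genes, 5.38% and 5.07% had such a p.

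UBD is also known as a gene of the interferon gamma response. Of 25 tested genes of that response and of the immunoproteasome, 12 rose, 5 fell and 8 were not called in MS177 against DMSO. The list's median log2 fold change was 0.18. In the same comparison, 28.9% of all tested genes were called higher and 29.0% lower. GBP4, a guanylate-binding protein, had 429 and 475 normalized reads with MS177 and 39.6 and 37.5 with DMSO (3.52, SE 0.24, limma adjusted p = 5.24e-09). CXCL11, a chemokine of T cells, had 32.1 and 34.6 with MS177 and 1.10 and 1.92 with DMSO (limma adjusted p = 0.00464). SOCS3, a feedback inhibitor of cytokine receptors, had 40.7 and 27.1 with MS177 and 0 and 7.69 with DMSO, at a log2 fold change of 3.54 (limma adjusted p = 0.00716). SOCS3 lost its call without DMSO replicate 1, at 1.98 (limma adjusted p = 0.0972), and was at 5.10 without DMSO replicate 2. CXCL11, SOCS3 and CXCL9, counted among the 12, could be tested only because they were high with MS177. Their p-values are thus no independent evidence of a rise. The immunoproteasome gene PSMB8 fell by 0.41 (SE 0.07) and its activator subunit PSME2 fell by 0.60 (SE 0.07), at limma adjusted p of 0.000114 and 3.22e-06. Against DMSO, limma called 0 of the 25 with C24 and 0 with MS177N1, and 0 had an unadjusted p under 0.05 in either. Over all tested genes, 5.38% and 5.07% had such a p.

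Markers of monocytes, macrophages and granulocytes moved with these genes. Of 11 such markers 7 were listed, and their summed level was 1790 and 1665 normalized reads with MS177, 375 and 352 with C24, 341 and 320 with MS177N1, and 315 and 390 with DMSO. CD68, a lysosomal protein, held most of that sum, with 1585 and 1471 with MS177 and 282 and 356 with DMSO. Of the 5 tested markers 5 were called higher, beside 28.9% of all tested genes. CD163, AIF1 and S100A9, counted here, had enough reads to test only because of the MS177 libraries. CD14 had 9.64 and 10.3 with MS177 and 7.70 and 9.61 with DMSO, and CSF1R had 0 and 3.74 with MS177 and 0 and 1.92 with DMSO. Markers of T and NK cells summed to 72.9 and 63.6 with MS177 and 134 and 104 with DMSO, those of endothelial and stromal cells to 177 and 142 with MS177 and 188 and 227 with DMSO, and those of epithelial cells to 26.8 and 34.6 with MS177 and 18.7 and 29.8 with DMSO. PECAM1, with 108 and 98.2 with MS177 and 179 and 212 with DMSO, held most of the endothelial and stromal sum. Of the 3 tested markers of that list, 2 were called higher, VWF and COL1A1, and 1 lower, PECAM1. VWF, too, had enough reads to test only because of the MS177 libraries. COL1A1 had enough without them, with 50.4 and 33.7 with MS177 and 6.60 and 14.4 with DMSO. A called rise was thus seen in COL1A1 as well as in the markers of monocytes, macrophages and granulocytes. The part of such markers in the levels of the 7 genes was not tested.

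The genes most like the 7 in level and pattern were taken as those with the smallest root-mean-square difference over the 8 libraries from the median of the 7, on the log2(normalized reads + 1) scale. They were LGALS3BP (0.47), TACC2 (0.59), INHBE (0.86), ITGA1 (0.90) and FUT1 (0.94). Of the 7 themselves, UBD was closest to their median, at 0.66, and ICAM1 farthest, at 5.09. LGALS3BP had 551 and 518 normalized reads with MS177, 5.14 and 8.85 with C24, 5.25 and 2.73 with MS177N1, and 3.30 and 5.77 with DMSO.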

How the data were processed

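RNA-seq of 8 MM1.S libraries was analysed, 2 in each of 4 groups. The authors deposited log2 values for 16295 genes, normalized per the file headers. The submitters' processing notes name hg19, STAR 2.4.2, Salmon 0.1.19 and DESeq2 1.38.2, without roles. All values share a minimum of 5.97 and have the form of a variance-stabilizing transformation, on which a doubling from 10 reads adds 0.23. It was inverted, and 130360 of 130360 values gave whole reads within 0.01. Size factors recovered this way equalled median-of-ratios factors computed from the reads.

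A gene was tested if 2 libraries reached the equivalent of 10 reads at median depth and all 8 together reached 15 reads, which left 14164. log2(normalized reads + 1) was fitted with limma 3.58.1 (trend, robust; R 4.3.3), all groups in 1 fit, with Benjamini-Hochberg adjustment over all tested genes and a threshold of 0.05, and the fit was tested on simulated data. Poisson and exact binomial intervals and the floor of 3 reads, a 1-sided limit, cover counting error only, at 95%. Folds given as at least a value take the MS177 reads as counted. Tests of the members against DMSO had been planned but are not reported, since DMSO took part in choosing them. The members and lists were chosen with earlier results of these data known. Genes outside the 7 were named by a fixed rule: per list, the 3 called genes with the largest rise and the 2 with the largest fall at a mean of at least 10 normalized reads, plus set partners of the members. Other genes named (markers, neighbours of the members, IL27RA, PTGES2, PTGES3, HPGD, PLA2G4A and TBXAS1) were chosen after their values were seen. Symbols were matched to older names with RefSeq and gene name tables. Alternatives were other pseudocounts, scaling, filter, model, a replicate block and leaving out each library.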

Additional observations from a re-analysis of the deposited data

How the results depend on the processing

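The count of called members in C24 against MS177N1, 0 of 4, stayed at 0 under the 16 alternatives run. The median log2 fold change of the 7 moved with the treatment of low reads. In MS177 against DMSO, C24 and MS177N1 it was 5.64, 5.49 and 5.95 with a pseudocount of 0.5, 3.76, 4.08 and 4.30 with a pseudocount of 5, 2.16, 1.99 and 2.13 on the deposited log2 values, and 5.70, 5.52 and 5.98 with voom weights. Leaving out 1 library gave 3.90 (without DMSO replicate 2) to 5.16 in MS177 against DMSO, 4.90 to 5.12 against C24 and 4.90 to 5.04 against MS177N1. The number of other NF-kB induced genes that fell was 1 in place of 2 with no filter, with total-read scaling, on the deposited values, with voom weights, with only the 2 groups compared and with the replicate block, and 1 to 2 when 1 library was left out. The gene that lost its call was IL15. Counts of the other lists stayed within 1.5 times.

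Small differences among the groups without MS177 changed sign. PTGS2 in C24 against DMSO was -0.03 with a pseudocount of 5 and ran from -1.15 to 1.77 when 1 library was left out, and in MS177N1 against DMSO from -0.50 to 2.43. EBI3 ran from -0.50 to 1.77 in C24 against DMSO, from -1.33 to 0.95 in MS177N1 against DMSO and from -0.12 to 1.77 in C24 against MS177N1. UBD ran from -0.21 to 0.62 in C24 against DMSO, and TNFAIP2 from -2.06 to 1.07 and ICAM1 from -0.02 to 0.12 in MS177N1 against DMSO. ITGB2 was called higher in MS177 against DMSO under 5 alternatives, at adjusted p of 0.0166 to 0.0386, and ITGAL with total-read scaling (0.00376).

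The replicate numbers do not pair the libraries by the labels, and the correlation of deviations between groups ranged from -0.070 to 0.321. With the replicate block, 8299 genes were called in MS177 against DMSO, against 8207 without it, and 0 of 4 members in C24 against MS177N1. The 2 libraries per group and 0 to 6 reads per library in EBI3, PTGS2 and CXCL8 without MS177 limit what could be detected there.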

Other observations

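Genes next to the 7 on the chromosomes were also looked at, by a rule set after the data were seen: the 2 nearest tested protein-coding genes on each side in the RefSeq table (GRCh38.p14 order). Of 28 such neighbours, 16 were called higher (57.1%) and 3 lower in MS177 against DMSO, beside 28.9% of all tested genes called higher, at a median log2 fold change of 0.43. Under the alternatives 13 to 18 neighbours were called higher. At least CXCL1 and AIF1, counted among the 16, could be tested only because they were high with MS177. The count is a description, also since several neighbours are themselves immune genes. Beside LTB in the major histocompatibility complex, NFKBIL1 rose by 0.97 (SE 0.09) and AIF1, a gene of macrophages, averaged 46.8 normalized reads with MS177 and 1.65 with DMSO. PRRC2A beyond it was not called (-0.02, SE 0.04). Beside EBI3, STAP2, an adaptor protein gene, averaged 745 with MS177 and 155 with DMSO (2.25, SE 0.13). Beside ICAM1, MRPL4, a mitochondrial ribosomal protein gene, fell by 0.68 (SE 0.08). For NFKBIL1, STAP2 and MRPL4, limma gave adjusted p between 7.82e-10 and 6.56e-06. That of AIF1, 0.00156, is no independent evidence of a rise.

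Transcripts of cytokines are often unstable because of AU-rich elements. The 9-base motif ATTTATTTA was found on the sense strand of the longest basic GENCODE 29 protein-coding transcript of 2 of the 7, with 2 matches in PTGS2 and 1 in CXCL8, and in 7.35% of 19652 genes. Of 11 factors that bind or act on unstable mRNAs, 6 rose (54.5%) and 3 fell (27.3%) in MS177 against DMSO, at a median of 0.29. Over all tested genes 28.9% rose and 29.0% fell. The list also holds ZC3H12A, RC3H1 and RC3H2, which rose but are not known mainly as binders of AU-rich elements. ZFP36L1, which promotes decay, had 933 and 942 normalized reads with MS177 and 354 and 361 with DMSO (1.39, SE 0.10). ZC3H12A, the RNase Regnase-1, rose by 0.93 (SE 0.10) and RC3H2, a Roquin family protein, by 0.67 (SE 0.10). KHSRP fell by 0.55 (SE 0.04) and HNRNPD fell by 0.32 (SE 0.05). These 5 had limma adjusted p between 1.27e-08 and 8.91e-05. Against DMSO, limma called 0 of the 11 with C24, where 1 had an unadjusted p under 0.05, and 0 with MS177N1, where 0 did. Over all tested genes, 5.38% and 5.07% had such a p.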
